A study of Mus musculus with 6 samples.

Results

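To ask whether genes that build and remove heterochromatin at OR genes are transcribed differently when OSNs lack the receptor transporters, the mRNA of 10 such genes was followed in olfactory mucosa with and without Rtp1 and Rtp2. The genes were taken by name from the 24661 genes of the expression files. They are Kdm1a, Ehmt1, Ehmt2, Setdb1, Cbx1, Cbx3, Cbx5, Lbr, Trim28 and Trim66. All 10 had counts in every mouse. The RNA-Seq libraries came from 3 wild-type mice and from 3 RTP1,2DKO mice, which carry germline alleles with the coding regions of both Rtp1 and Rtp2 replaced. All 6 mice were 21 days old, labelled as C57BL/6 and untreated. The mutant alleles were made in ES cells of hybrid strain background and kept by backcrossing to C57BL/6, and the methods describe the wild-type mice as littermates. The labels call the tissue olfactory epithelium, while the methods describe whole mucosa with the surrounding tissue, so the RNA comes from many cell types.

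Each OSN expresses one OR gene and keeps the others silent. In OSNs the silent OR genes carry methylation of histone H3 at lysine 9 and of histone H4 at lysine 20, the marks of constitutive heterochromatin, and they gather in compact bodies inside the nucleus. The enzymes that write the first of these marks are histone methyltransferases, HP1 proteins bind it, and lamin B receptor tethers such chromatin to the nuclear envelope. The demethylase LSD1 is known to be needed when a first OR gene is released from silencing, and it is shut off again once an OR protein has triggered the feedback that ends OR choice.

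The total estimated count ranged from 31125410 to 41636996 per mouse, and counts were scaled by size factors between 0.907 and 1.147, which gives normalized counts. Rtp1 had 13543 to 25301 normalized counts in the wild-type and 85 to 109 in RTP1,2DKO, and Rtp2 had 7157 to 9510 against 26 to 58, so the libraries followed their labels. Of 22152 genes that any mouse had a count for, 799 (3.61%) passed an adjusted p of 0.05 in edgeR's quasi-likelihood test, 697 lower (3.15%) and 102 higher (0.46%) in RTP1,2DKO. All 6 mature OSN markers were lower, with log2 fold changes between -2.0 and -0.90. In bulk tissue, fewer cells of a type and less RNA per cell cannot be told apart.

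None of the 10 heterochromatin genes passed the threshold, against 3.61% of all genes tested. By unadjusted p under 0.05 in the same test the count was also 0 of 10 (11.8% of all genes), and DESeq2's Wald test (5.66% of the 19559 genes to which it gave an adjusted p) and an edgeR fit with the replicate number as a block (4.57%) likewise called 0 of 10. The log2 fold changes ran from -0.01 for Ehmt1 and Cbx1 to 0.22 for Lbr. Positive values were found for 8 genes and negative values for 2, with a median of 0.10, and the median of all genes tested was 0.02. These signs hold for counts scaled by size factors, and under the deposited TPM, which shares out a fixed total over the genes of a mouse, all 10 group means were lower in RTP1,2DKO. Under TPM the median over the 13900 genes with a mean of at least 100 counts itself moved by -0.23 on the log2 scale, and relative to that median 7 of the 10 genes lay above and 3 below, as they did with size factors. The 95% interval of each of the 10 genes lay between a 1.5-fold decrease and a 1.5-fold increase, a bound that was set after the values were seen. That held for 41.7% of all genes tested and for 80.8% of the 9021 genes whose mean count was at least that of the lowest of the 10, so most genes of such depth were measured as tightly. The intervals were narrowest for Ehmt1, Setdb1 and Kdm1a and widest for Trim66.

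**Figure D1:**
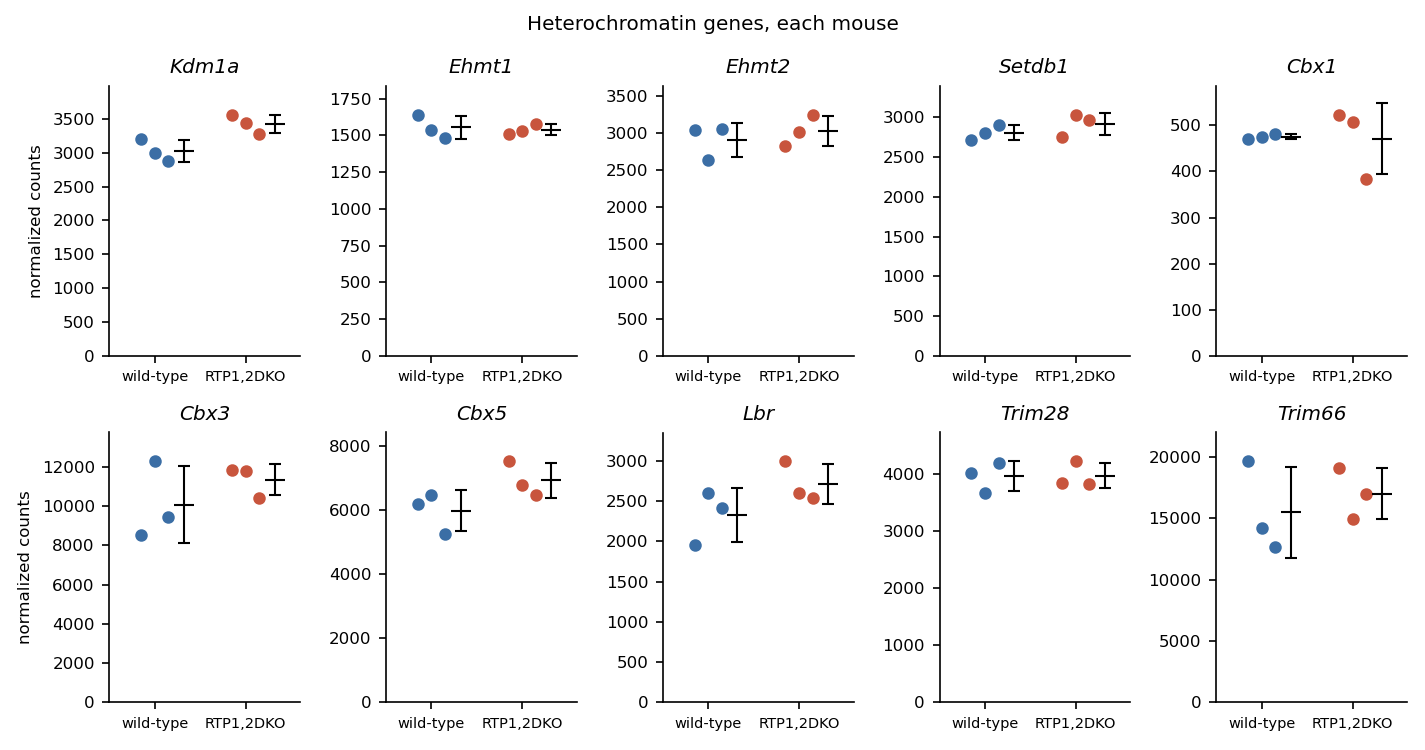
Normalized counts of the 10 heterochromatin genes (vertical axes, each starting at 0) in each wild-type mouse (blue, replicates 1 to 3 from left) and each RTP1,2DKO mouse (red), with the mean and SD of 3 mice beside them in black. On this scale Kdm1a is the gene in which all RTP1,2DKO mice lie above all wild-type mice, with 3283 to 3557 against 2878 to 3209 normalized counts.

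Kdm1a encodes LSD1, which removes methyl groups from histone H3 at lysine 4 or lysine 9 and is the de-silencing member of the group. It lies on chromosome 4 from 136550533 to 136602787 (RefSeq, GRCm38.p6). Kdm1a had 3209, 2988 and 2878 normalized counts in the wild-type (replicates 1 to 3, as for all genes that follow) and 3557, 3436 and 3283 in RTP1,2DKO. The lowest RTP1,2DKO mouse was above the highest wild-type mouse, so the groups did not overlap, and Kdm1a was the 1 gene of the 10 of which this was true. With FPKM or TPM in place of size-factor counts the Kdm1a values of the genotypes overlapped, and the mean moved from 35.1 to 38.9 FPKM but from 39.0 to 37.4 TPM. Among all genes tested, 7.17% had every RTP1,2DKO mouse above every wild-type mouse. The means were 3025 ± 169 (SD, n = 3) and 3425 ± 138 (SD, n = 3). On the log2 scale the change was 0.18 ± 0.11 (SE), which is 1.13-fold with a 95% interval from 0.957 to 1.34-fold, and it did not pass the threshold (adjusted p = 0.632, edgeR's quasi-likelihood test with Benjamini-Hochberg adjustment). It stayed between 0.14 and 0.22 on that scale whichever mouse was left out.

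The promoters of Kdm1a and Trim66 are shown because they differ in base composition, the de-silencing gene having a start rich in CG pairs and Trim66 the start with the fewest among the 10 genes. They are given 5′ to 3′ on the strand of the gene, from 250 bases before to 50 bases after the start, as in RefSeq on GRCm38.p6, at chr4:136602674-136602973 (minus strand) for Kdm1a and at chr7:109508085-109508384 (minus strand) for Trim66. Capitals mark each CG.
Kdm1a: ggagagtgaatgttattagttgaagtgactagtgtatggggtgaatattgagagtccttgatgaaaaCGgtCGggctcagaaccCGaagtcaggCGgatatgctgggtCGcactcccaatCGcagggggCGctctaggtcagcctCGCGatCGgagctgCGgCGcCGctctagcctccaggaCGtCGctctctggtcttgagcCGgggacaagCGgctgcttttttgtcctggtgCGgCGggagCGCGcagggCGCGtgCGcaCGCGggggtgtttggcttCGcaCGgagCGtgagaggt
Trim66: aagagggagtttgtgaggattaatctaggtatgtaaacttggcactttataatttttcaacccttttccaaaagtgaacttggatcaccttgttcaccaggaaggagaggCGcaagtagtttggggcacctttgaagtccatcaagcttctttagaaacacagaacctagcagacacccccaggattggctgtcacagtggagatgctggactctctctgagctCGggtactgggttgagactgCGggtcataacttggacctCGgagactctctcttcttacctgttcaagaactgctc
The Kdm1a window held 29 CG pairs and 61.3% G or C, and the Trim66 window held 4 and 47%. Across 32851 RefSeq promoters of the same length the medians were 7 CG pairs and 52.7%, and 31.4% of them held fewer CG pairs than the Trim66 window. RefSeq gave 13 promoters for the 10 genes, and 12 of them lay above the median number of CG pairs, compared with 48.6% of all promoters. CG is its own reverse complement, so both strands hold the same number. The RefSeq span of Trim66 reaches beyond this start, and a further start was not analysed here.

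The 3 genes whose profile over the 6 mice was most like that of Kdm1a, by Pearson's r of log2(normalized counts + 1) among 13900 genes with a mean of at least 100 counts, were Dna2 (r = 0.998), which takes part in DNA replication and repair, Ercc6l (r = 0.990), a helicase of mitotic chromosomes, and Rbm34 (r = 0.988), an RNA-binding protein. The 6 points are the same 6 libraries with the same size factors, and these values are a description of profiles picked from 13900. In wild-type and RTP1,2DKO, Dna2 averaged 195 and 256 normalized counts, Ercc6l 148 and 215, and Rbm34 1075 and 1218. None of these genes passed the threshold.

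LSD1 acts with partners, and 11 of them were followed, among them the corepressor CoREST (Rcor1), the deacetylases Hdac1 and Hdac2 and the related demethylase Kdm1b. None passed the threshold. The log2 fold change was positive for 8 of the 11, with a median of 0.19, and 3 of them (27.3%, beside 7.17% of all genes) lay higher in every RTP1,2DKO mouse without overlap. Under TPM 3 of the 11 values were positive, and none was without overlap. Relative to the TPM median shift of -0.23, 6 of the 11 lay above and 5 below. With size factors 7 lay above the median shift and 4 below. The summed level of the 11 genes was 15749 to 17147 normalized counts in the wild-type and 18245 to 19085 in RTP1,2DKO. These sums did not overlap on the size-factor scale. The gene of this list with the largest change was Hdac2, which removes acetyl groups from histones. Hdac2 had 4716, 5667 and 4581 normalized counts in the wild-type and 6515, 6623 and 6195 in RTP1,2DKO. Every RTP1,2DKO mouse was above every wild-type mouse. The change was 0.37 ± 0.12 (SE) on the log2 scale with a 95% interval from 0.11 to 0.63, and the adjusted p was 0.167 in edgeR's quasi-likelihood test, 0.061 in DESeq2's Wald test and 0.080 in the edgeR fit with the replicate block.

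The period in which LSD1 is on is known to be set by a feedback loop in which the kinase PERK (Eif2ak3) raises translation of the transcription factor ATF5, and Adcy3, an adenylate cyclase of mature OSNs, is needed to end it. Atf5 mRNA had 8751, 7860 and 7179 normalized counts in the wild-type and 8691, 8784 and 8544 in RTP1,2DKO, groups that overlapped, with a log2 fold change of 0.13 (adjusted p = 0.775, edgeR's quasi-likelihood test). Eif2ak3 had a log2 fold change of -0.05 (adjusted p = 0.945 in the same edgeR test), and Ddit3, a transcription factor of the unfolded protein response, one of 0.08 (adjusted p = 0.961 in the same edgeR test). mRNA levels of whole mucosa measure neither the translational control of ATF5 nor the amount of LSD1 protein or the cells that hold it. Adcy3 fell to 5090, 5303 and 5210 normalized counts from 15889, 13012 and 12652, a log2 fold change of -1.41 (adjusted p = 4.8e-05, edgeR's quasi-likelihood test). That change lay within the range of the 6 mature OSN markers, -2.0 to -0.90. The part of mature OSN number in it was not tested.

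The log2 fold changes of the 3 methyltransferases of H3 lysine 9 lay within 0.06 of 0. Ehmt1 (GLP) and Ehmt2 (G9a) form one enzyme that writes mono- and dimethylation, and Setdb1 writes trimethylation where KRAB zinc finger proteins recruit it. Ehmt1, on chromosome 2 from 24790769 to 24919643, had 1640, 1539 and 1485 normalized counts in the wild-type and 1508, 1532 and 1581 in RTP1,2DKO. Ehmt2, on chromosome 17 from 34898463 to 34914073, had 3034, 2638 and 3051 against 2830, 3011 and 3244. Setdb1, on chromosome 3 from 95323525 to 95357202, had 2713, 2801 and 2901 against 2753, 3029 and 2963. In all 3 genes the mice of one genotype lay among those of the other. The log2 fold changes were -0.01 for Ehmt1 (95% interval -0.25 to 0.22), 0.06 for Ehmt2 (-0.20 to 0.32) and 0.06 for Setdb1 (-0.18 to 0.30). The adjusted p of edgeR's quasi-likelihood test was 0.986, 0.925 and 0.924. Leaving out 1 mouse at a time was enough to change the sign for Ehmt1 (-0.05 to 0.03) and Ehmt2 (-0.01 to 0.11). Of the 31-base words in Setdb1 transcripts of GENCODE M21, 7.70% are shared with Gm4349, so the Setdb1 count could include or lose reads of Gm4349. Whether Gm4349 was among the transcripts used for mapping was not checked.

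The other H3 lysine 9 methyltransferases and their partners comprised 8 genes, including Suv39h1 and Suv39h2, which maintain pericentric heterochromatin. None of the 8 passed the threshold and 4 had positive and 4 negative log2 fold changes, with a median of 0.01. The largest was that of Zfp644, a zinc finger protein that recruits G9a and GLP, at 0.29 (adjusted p = 0.537, edgeR's quasi-likelihood test). The 3 enzymes that methylate H4 lysine 20 had a median of -0.10. Among them Kmt5a, which adds the first methyl group and is used in dividing cells, had 5770, 6584 and 5522 normalized counts in the wild-type and 5080, 5173 and 4594 in RTP1,2DKO. On size factors every RTP1,2DKO mouse was lower than every wild-type mouse, as was true of 9.24% of all genes. Under FPKM or TPM none of the 3 enzymes was lower in every RTP1,2DKO mouse. The Kmt5a log2 fold change of -0.27 did not pass the threshold (adjusted p = 0.400, edgeR's quasi-likelihood test). The 10 Jumonji demethylases, which remove H3 lysine 9 methylation by another chemistry than LSD1, had a median of -0.08. Of these, 9 had negative values and 1 a positive one, and none passed. Phf8 had the largest change, -0.21, with 3237 to 3955 normalized counts in the wild-type and 2879 to 3228 in RTP1,2DKO (adjusted p = 0.575, edgeR's quasi-likelihood test).

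**Figure D2:**
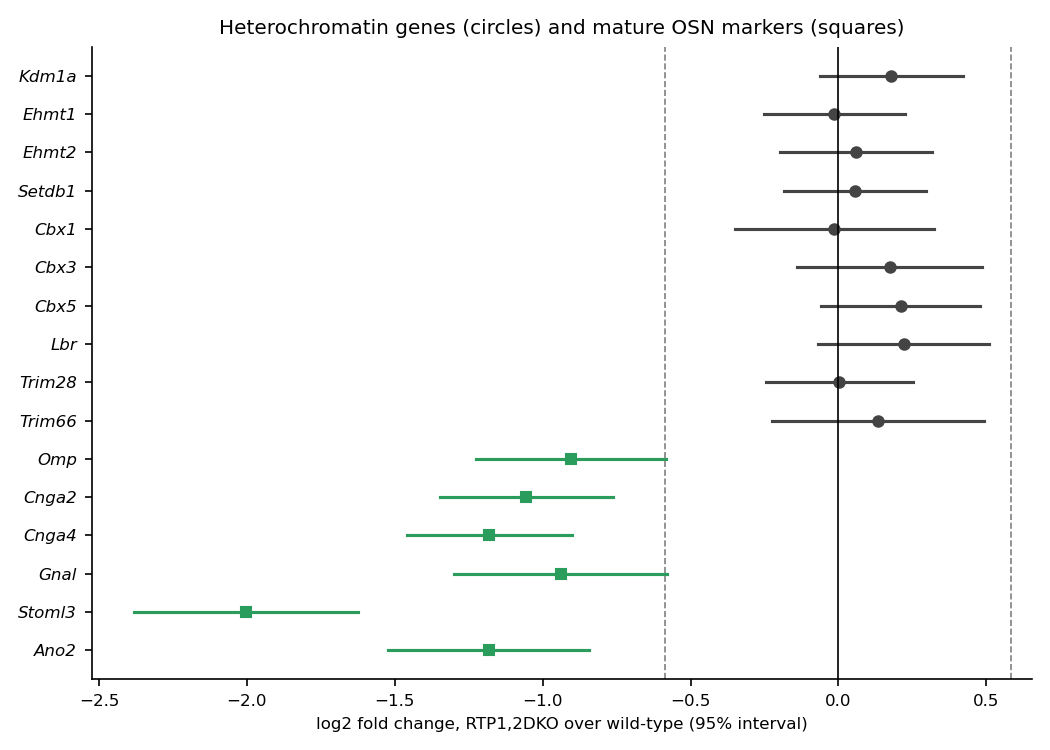
Log2 fold change of RTP1,2DKO over wild-type (horizontal axis) with its 95% interval for the 10 heterochromatin genes (circles) and, for scale, the 6 mature OSN markers (squares). The dashed lines are a 1.5-fold change in either direction. The 10 gene intervals all cross 0, and the marker values lie between -2.0 and -0.90.

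The HP1 proteins read H3 lysine 9 methylation through a chromodomain and bring neighbouring nucleosomes together. Cbx5 (HP1 alpha), on chromosome 15 from 103191546 to 103239904, had 6201, 6475 and 5266 normalized counts in the wild-type and 7514, 6779 and 6470 in RTP1,2DKO. The lowest RTP1,2DKO mouse was just below the highest wild-type mouse. Its log2 fold change was 0.21 ± 0.12 (SE; 95% interval -0.06 to 0.48). Cbx5 had the lowest adjusted p of the 10 genes, 0.595 in edgeR's quasi-likelihood test, 0.584 in DESeq2's Wald test and 0.436 in the edgeR fit with the replicate block.

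Cbx3 (HP1 gamma), on chromosome 6 from 51470154 to 51483704, had 8494, 12263 and 9415 normalized counts in the wild-type and 11817, 11780 and 10418 in RTP1,2DKO. The highest value was that of wild-type mouse 2. For Cbx3 the log2 fold change was 0.17 (95% interval -0.14 to 0.49; adjusted p = 0.760, edgeR's quasi-likelihood test) and 0.34 without wild-type mouse 2, when the unadjusted p was under 0.05 and the adjusted p of the same edgeR test was 0.288. Words of 31 bases unique to Cbx3 made up 76.8% of its transcripts in GENCODE M21, and 24 other genes share the rest, first Cbx3-ps6. The Cbx3 count could therefore include or lose reads of copies. Whether the copies were among the transcripts used for mapping was not checked. Cbx1 (HP1 beta), on chromosome 11 from 96788680 to 96808982, had 471, 474 and 482 normalized counts in the wild-type and 523, 508 and 383 in RTP1,2DKO. The wild-type mice were close together and RTP1,2DKO mice lay on both sides of them. The log2 fold change was -0.01 (95% interval -0.35 to 0.32; adjusted p = 0.990, edgeR's quasi-likelihood test), with a range from -0.09 to 0.11 over the mice left out.

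To compare the HP1 genes with each other, levels per length were computed as FPKM, and the share of each in the FPKM sum of the 3 genes was taken. Cbx3 held 84.6% ± 2.2 (SD, n = 3) of the sum in wild-type mice and 85.4% ± 0.60 (SD) in the 3 RTP1,2DKO mice. Cbx5 held 8.02% ± 1.23 and 8.19% ± 0.40, and Cbx1 held 7.37% ± 1.16 and 6.37% ± 0.58. The genotypes overlapped in each of the 3 shares. The share of Cbx3 could include or lose reads of its copies, which was not checked.

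Lamin B receptor (Lbr) is an inner nuclear membrane protein that binds lamin B and HP1, and it is known to be low in OSNs, where its forced expression disperses the OR gene bodies. Lbr lies on chromosome 1 from 181815315 to 181842401. It had 1960, 2606 and 2411 normalized counts in the wild-type and 2992, 2604 and 2534 in RTP1,2DKO. RTP1,2DKO mouse 1 was the highest and wild-type mouse 1 the lowest of all, and the others lay between 2411 and 2606. The log2 fold change was 0.22 ± 0.13 (SE; 95% interval -0.07 to 0.51), the largest of the 10 genes, and did not pass the threshold (adjusted p = 0.615, edgeR's quasi-likelihood test). Among 11 other genes of the nuclear lamina and inner membrane, none passed, 9 had positive values and the median was 0.14, while 2 were positive under TPM. Relative to the TPM median shift of -0.23, 7 lay above and 4 below. With size factors 9 lay above the median shift and 2 below. Lmna, which encodes lamins A and C of differentiated cells, had 1068, 1284 and 1105 normalized counts in the wild-type and 1542, 1557 and 1422 in RTP1,2DKO. These groups did not overlap on size factors, where 7.17% of all genes had every RTP1,2DKO mouse higher. Under FPKM or TPM none of the 11 genes was higher in every RTP1,2DKO mouse. The log2 fold change of Lmna was 0.39 (95% interval 0.13 to 0.65; adjusted p = 0.128, edgeR's quasi-likelihood test).

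Trim28 and Trim66 belong to the TIF1 family of bromodomain proteins that bridge DNA-bound factors to heterochromatin. Trim28 (KAP1) carries SETDB1 and HP1 to KRAB zinc finger proteins, and Trim66 binds HP1. Trim28, on chromosome 7 from 13024152 to 13031032, had 4018, 3670 and 4189 normalized counts in the wild-type and 3851, 4222 and 3832 in RTP1,2DKO. The mean was 3959 ± 264 (SD, n = 3) and 3968 ± 220 (SD, n = 3), and the 95% interval of the log2 fold change ran from -0.25 to 0.25. Its adjusted p was 0.996 in edgeR's quasi-likelihood test, the highest of the 10 genes, and the log2 fold change took either sign, from -0.05 to 0.05, as single mice were left out.

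Trim66, on chromosome 7 from 109449001 to 109516759, had 19640, 14200 and 12626 normalized counts in the wild-type and 19066, 14914 and 17011 in RTP1,2DKO. The 2 mice numbered 1 were the highest of their groups, and the spread within the wild-type was wider than the distance between the group means, 15489 ± 3680 (SD, n = 3) and 16997 ± 2076 (SD, n = 3). The log2 fold change was 0.13 (95% interval -0.22 to 0.49; adjusted p = 0.840, edgeR's quasi-likelihood test). Without wild-type mouse 1 it was 0.34, with an unadjusted p under 0.05 and an adjusted p of 0.355 in the same edgeR test. The TIF1 relatives Trim24 and Trim33 had log2 fold changes of -0.05 and -0.04, and neither passed.

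Compared per length within each library, Cbx3 stood above the other genes with 226 ± 62 FPKM (SD, n = 3 for each group here) in the wild-type and 248 ± 32 FPKM in RTP1,2DKO. Trim66 followed with 51.6 ± 12.9 and 55.5 ± 10.2 FPKM, then Trim28 with 42.2 ± 0.84 and 41.5 ± 3.2 FPKM and Kdm1a with 35.1 ± 3.8 and 38.9 ± 4.3 FPKM. These 4 genes lay between the 88.6th and the 98.6th percentile of the 22152 genes in the wild-type. Ehmt2 (25.6 ± 0.86 FPKM in the wild-type), Lbr (22.4 ± 4.4), Cbx5 (21.0 ± 3.9), Setdb1 (19.8 ± 1.5) and Cbx1 (19.1 ± 1.5) formed a closer set, and Ehmt1 was lowest with 10.2 ± 1.1 and 9.87 ± 0.50 FPKM. The order was the same in both genotypes, and the same when the deposited TPM values were used. In the wild-type the range over mice of Cbx3 stood clear of that of Trim66, Trim28 of Kdm1a, Kdm1a of Ehmt2 and Cbx1 of Ehmt1, while the other neighbours in this order overlapped and did not differ beyond their spread.

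**Figure D3:**
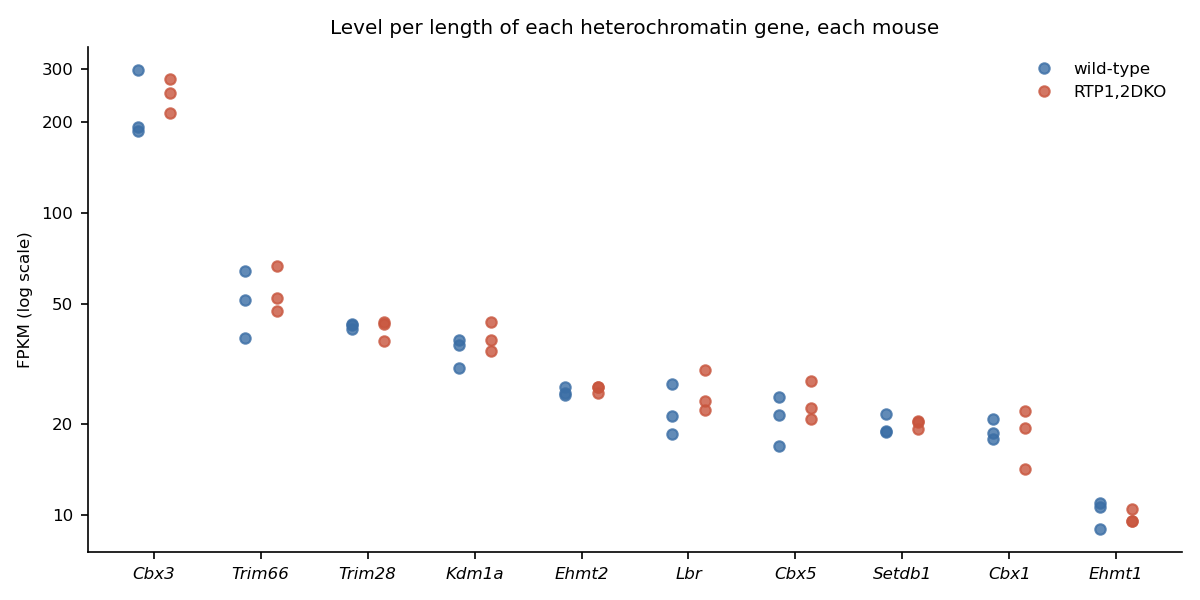
FPKM of each heterochromatin gene (log scale) in each wild-type mouse (blue) and each RTP1,2DKO mouse (red), ordered by the wild-type mean. Cbx3 lies between 187 and 298 FPKM in all 6 mice, Ehmt1 between 8.97 and 11.0, and the 2 genotypes overlap within each gene.

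The deposited files resolve 23 transcripts of the 10 genes, and Cbx1, Cbx3, Lbr and Trim28 have 1 each. For the other 6 the share of the gene's counts on its leading transcript, the one with the highest mean share over all 6 mice, was compared by exact permutation tests, which for 3 mice against 3 cannot give a p below 0.1. For Kdm1a, the transcript of 3030 bases took 40.9%, 84.3% and 66.6% in wild-type mice and 70.1%, 75.9% and 60.6% in RTP1,2DKO mice (two-sided exact permutation p = 0.8). The rest fell on a transcript of 3075 bases, close to it in length. How many reads tell the 2 apart was not counted. For Setdb1, the transcript of 4644 bases took from 27.1% to 99.9% in the wild-type and from 9.46% to 82.8% in RTP1,2DKO (two-sided exact permutation p = 0.6). Most of the rest fell on a Setdb1 transcript of 4641 bases, nearly the same length, and the reads that tell them apart were not counted either. The 3805-base transcript of Ehmt2 took from 73.9% to 97.4% over all mice (two-sided exact permutation p = 0.3).

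The 4948-base transcript of Ehmt1 led over all mice but not in the wild-type mean. It took 42.0%, 33.0% and 53.1% in the wild-type and 51.2%, 97.9% and 66.2% in RTP1,2DKO. The means differed by 29.1 percentage points, but the groups overlapped (two-sided exact permutation p = 0.2). The 8801-base transcript of Cbx5 took 72.2%, 73.8% and 90.2% against 85.3%, 48.7% and 30.0% (two-sided exact permutation p = 0.3), and the 9255-base transcript of Trim66 took 61.4% or more in all mice (two-sided exact permutation p = 0.8). In each of the 6 genes mice of the 2 genotypes overlapped. The estimated shares of mice of one genotype differed by as much as 73.4 percentage points, for Setdb1 in RTP1,2DKO. A further transcript of Ehmt1 was 4963 bases long and one of Cbx5 8802 bases, close to the leading ones. How many reads tell the transcripts of a gene apart was not counted for any of the 6 genes, so real differences between mice were not shown. After Benjamini-Hochberg adjustment over these 6 exact permutation tests the lowest p was 0.6.

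**Figure D4:**
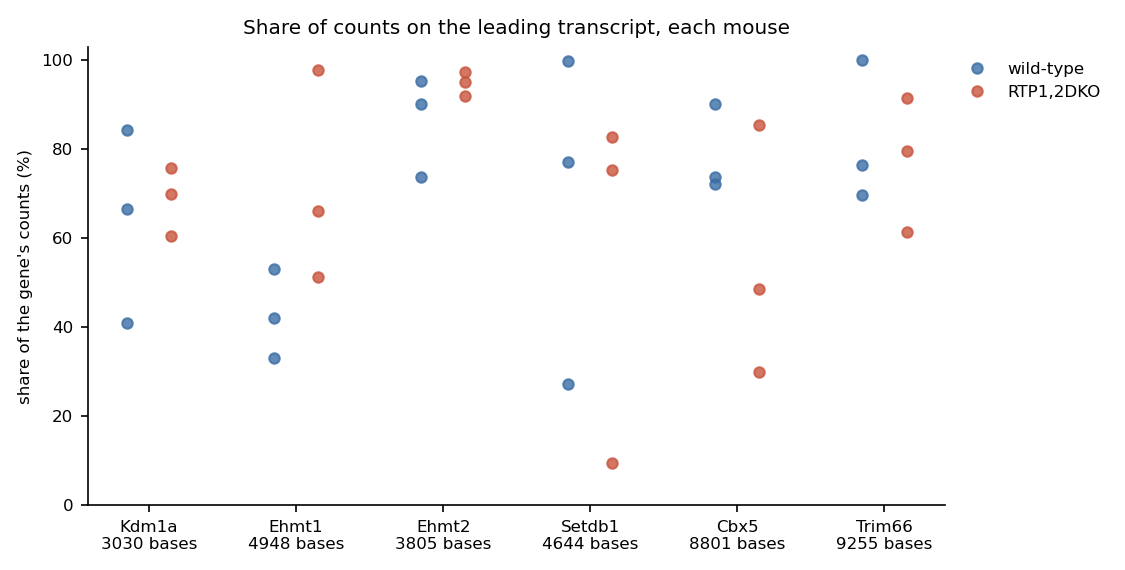
Share of a gene's estimated counts on its leading transcript (vertical axis, percent) in each wild-type mouse (blue) and each RTP1,2DKO mouse (red) for the 6 genes with more than 1 transcript. The genotypes overlap in every gene, and Setdb1 runs from 9.46% to 99.9%.

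Beyond the LSD1 partners, methyltransferases, demethylases, lamina and TIF1 genes, 3 further lists of silencing genes were followed. The 11 HUSH and chromatin remodelling silencers had a median log2 fold change of -0.01, the 9 Polycomb genes one of -0.07 and the 9 DNA methylation writers and readers one of 0.00. With genes averaging under 100 counts left aside, their largest changes were those of Adnp, a chromatin remodelling partner of HP1 (-0.36), Cbx8, a reader of Polycomb methylation (-0.33), and Uhrf1, which maintains DNA methylation at replication (0.43). Uhrf1 had 394, 501 and 461 normalized counts in the wild-type and 679, 684 and 460 in RTP1,2DKO, so RTP1,2DKO mouse 3 lay with the wild-type mice. The adjusted p of edgeR's quasi-likelihood test was 0.670 for Adnp, 0.558 for Cbx8 and 0.344 for Uhrf1.

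Over the 9 related lists together, none of 74 genes passed the threshold with edgeR's quasi-likelihood test, and DESeq2's Wald test and the edgeR fit with the replicate block also called none. By unadjusted p under 0.05 in the edgeR test there were 8 (10.8%), beside 11.8% of all genes tested. The signs were even, with 37 positive and 37 negative log2 fold changes on size factors and a median of -0.00. On size factors every RTP1,2DKO mouse was higher in 9 genes (12.2%, beside 7.17% of all genes). In 6 genes every RTP1,2DKO mouse was lower on that scale (8.11%, beside 9.24%). Under TPM none of the lists held a gene higher in every RTP1,2DKO mouse, and the Polycomb list held 1 that was lower. Under FPKM the LSD1 partners held 1 higher gene and the other lists none, while single lists held up to 2 lower genes. The shares of all genes under TPM and FPKM are not given here.

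**Figure D5:**
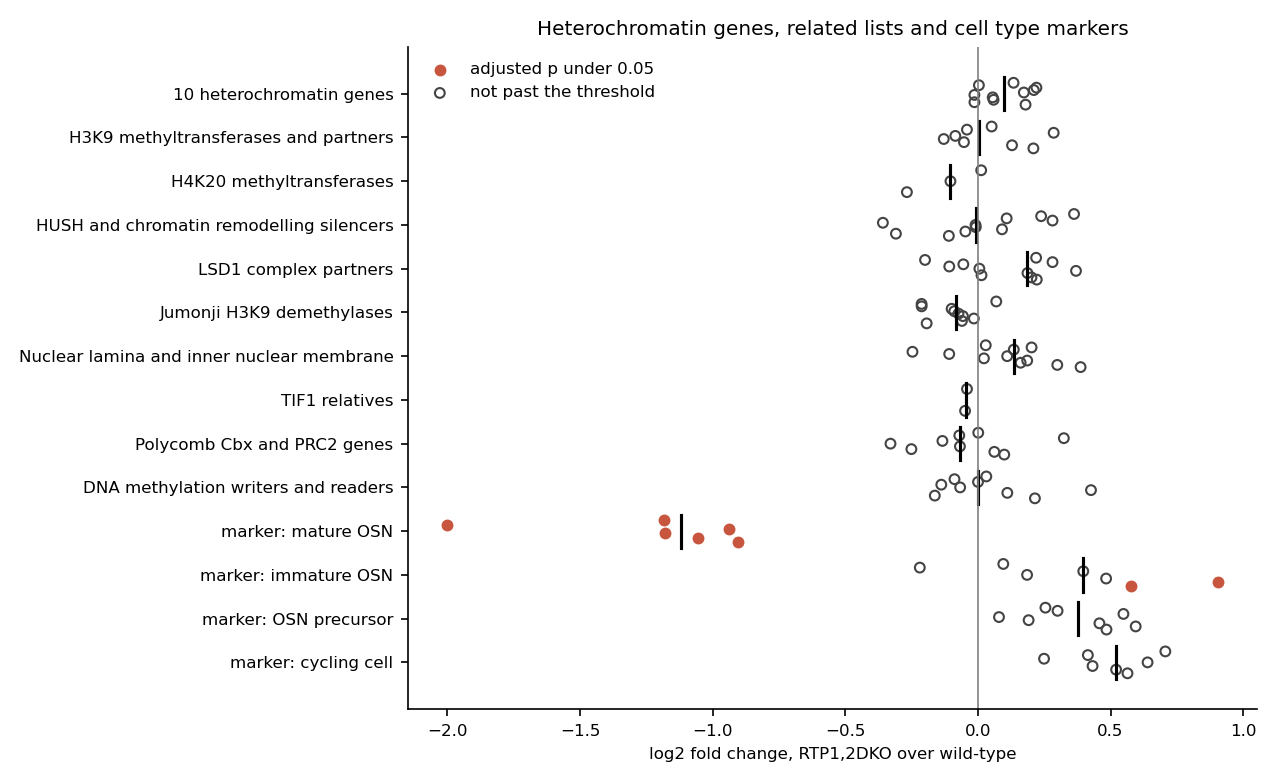
Log2 fold change of RTP1,2DKO over wild-type (horizontal axis) for each of the 10 heterochromatin genes, each gene of 9 related lists and 4 lists of cell type markers, with the median of a list as a black bar. Filled points passed an adjusted p of 0.05 in edgeR's quasi-likelihood test, as all 6 mature OSN markers and 2 of 7 immature OSN markers did, and no heterochromatin or related gene did.

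Cell type markers moved between the genotypes in the same libraries. The 6 mature OSN markers summed to 141930 to 163870 normalized counts in the wild-type and 72977 to 79497 in RTP1,2DKO. Of 7 immature OSN markers, 2 rose, the growth cone protein gene Gap43 (log2 fold change 0.58) and the G protein subunit gene Gng8 (0.91), and the list summed to 34518 to 46894 against 45520 to 51699. DESeq2's Wald test called 4 of the 7, as did the edgeR fit with the replicate block. Of the 8 OSN precursor markers and the 7 cycling cell markers, none passed, all had positive values, and the medians were 0.38 and 0.52. The cycling cell markers summed to 6192 to 7950 in the wild-type and 8492 to 11056 in RTP1,2DKO, without overlap, and DESeq2's Wald test and the edgeR fit with the replicate block each called 2 of the cycling and 1 of the precursor markers. The 10 heterochromatin genes summed to 44703 to 51379 and 51718 to 56412 normalized counts, sums led by Trim66 and Cbx3 that did not overlap either, although they did under FPKM and TPM. The part of these marker lists in the values of the 10 genes was not tested.

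Set against the mature OSN markers, every one of the 10 genes lay higher in RTP1,2DKO. The log2 ratio of each gene to the mature marker level was greater in RTP1,2DKO by 1.18 (Cbx1) to 1.43 (Lbr), with no overlap between genotypes in any of the 10 (exact permutation p = 0.1 each, the smallest that 3 mice against 3 allow). That was the case for 79.2% of all genes tested, and the markers in the denominator were themselves lower. For Kdm1a it went from -2.24 ± 0.08 (SD, n = 3) to -0.85 ± 0.03 (SD, n = 3).

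Of the remaining marker lists, erythroid genes had a median log2 fold change of 0.80 with 1 of 6 higher (0 with the replicate block and 2 with DESeq2's Wald test), sustentacular genes had 1 of 6 lower, and none passed among horizontal basal, respiratory ciliated, ensheathing glia, neutrophil, leukocyte and vomeronasal markers. Of the 5 respiratory ciliated markers, 1 was called by DESeq2's Wald test and by the fit with the replicate block. Without Ltf, which made up most of their sum, the neutrophil and marrow markers summed to 1308 to 7364 normalized counts in the wild-type and 3712 to 6723 in RTP1,2DKO, ranges that overlapped, and the part of such RNA in the values of the 10 genes was not tested.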

How the data were processed

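Stranded libraries were made from RNA of olfactory mucosa (3 mice per genotype). The authors quantified reads with kallisto (version not given in the sources used here; build mm10 in the submitters' processing notes) and deposited, per transcript, its estimated count and its TPM value.

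Estimated counts were summed per gene, rounded, scaled by DESeq2 1.42.0 median-of-ratios size factors and tested with edgeR 4.0.16 (quasi-likelihood, R 4.3.3) for genotype over 22152 genes, with Benjamini-Hochberg adjustment. FPKM was computed from estimated counts and effective lengths. Transcript shares and marker ratios were tested by exact permutation over mice (scipy 1.17.1). The main edgeR fit was also run on simulated counts with known changes, and the outcome is not given here. Alternatives were TMM normalization, a low-count filter, DESeq2's Wald test, a replicate block and each mouse left out.

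Deviations from the group mean correlated at 0.139, 0.179 and 0.103 (18133 genes) between mice with the same number. Between mice of different numbers the values ran from -0.219 to 0.0934, the latter for wild-type mouse 1 with RTP1,2DKO mouse 3. The methods give littermates matched for sex, so the replicate block took the numbers to pair the mice. The main edgeR test and the exact permutation tests were unpaired. The part of shared sex in these correlations was not tested. Xist was high in mouse 2 of each group (73666 and 66386 normalized counts) and at most 155 in the others, so sex is shared by number, and results without mouse 2 of a group also change its sex ratio.

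The 10 genes, gene lists and related rules were chosen with earlier results of these data known. Named genes were the 10, the targeted genes, the timing genes, the gene of largest change per related list and the 3 genes nearest to Kdm1a; other markers and list genes named were chosen after their values were seen. Gene spans and promoters are RefSeq's (GRCm38.p6).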

Additional observations from a re-analysis of the deposited data

How the results depend on the processing

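No heterochromatin gene and no related gene passed the threshold in any of the 10 alternative fits. Of 100 refitted log2 fold changes of the 10 genes, 94 kept their sign and 6 took the opposite one, all with a mouse left out: Ehmt1 (range -0.045 to 0.027), Ehmt2 (-0.0065 to 0.105), Cbx1 (-0.094 to 0.112) and Trim28 (-0.048 to 0.046). Ratios of group means under TPM, added after seeing the data and with no test, were negative for all 10 genes: -0.059 for Kdm1a, -0.18 for Ehmt2, -0.19 for Setdb1, -0.075 for Cbx3, -0.037 for Cbx5, -0.0015 for Lbr, -0.23 for Trim28 and -0.12 for Trim66 took the opposite sign, before the median shift of -0.23 is taken off. Under FPKM only Trim28 did (-0.026). With mice left out, 8 to 10 of the 10 intervals stayed within 1.5-fold. The count of all genes higher in RTP1,2DKO moved from 102 to 216 with DESeq2's Wald test, to 196 with the replicate block, and to between 52 and 132 with each mouse left out, while all calls ranged from 598 to 777. The block pairs mice by number; it gave 1012 calls and changed no call among the 10 genes or the related lists. The difference in transcript share ranged, with mice left out, from -6.59 to 15.1 percentage points for Kdm1a, from 16.0 to 39.4 for Ehmt1, from 2.10 to 12.8 for Ehmt2, from -32.6 to 11.1 for Setdb1, from -39.4 to -11.7 for Cbx5 and from -11.5 to 4.43 for Trim66. The cause of these changes was not tested. With 3 mice a group, differences among the 10 genes smaller than their intervals could not be seen at this depth.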
